A study of Mus musculus with 2 samples.

Results

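The sodium pump and sodium-calcium exchanger genes described here are Atp1b1, Atp1b2 and Atp1b3, which encode beta subunits of the Na,K-ATPase, Fxyd1, which encodes the pump regulator phospholemman, and Slc8a1, which encodes the sodium-calcium exchanger NCX1. They were chosen by symbol, not by level, and all 5 were found among the 43346 Ensembl genes of each deposited gene table. Poly(A) RNA from the heart of 1 mouse was sequenced in 2 libraries, given as technical replicates 1 and 2 of 1 biological replicate. The animal was an adult C57BL/6J female aged 10 weeks, with no treatment or engineered allele named in the labels. Replicate 2 was made later, after the publication that used replicate 1. There is 1 animal and 1 group, so no test between conditions can be made, and every SD below is the spread of 2 technical libraries.

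The Na,K-ATPase moves sodium out of the cell and potassium in, using ATP. Its catalytic alpha subunit needs a beta subunit to fold and to reach the plasma membrane, and FXYD proteins bind the assembled pump and tune it. In cardiac muscle phospholemman is a main target of protein kinase A at the pump. NCX1 uses the sodium gradient that the pump maintains to remove calcium from the myocyte after each beat, so the pump and the exchanger are linked through sodium, and cardiac glycosides act by blocking the pump.

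Slc8a1 and Fxyd1 are shown as sequence because the transcript assignment of the first and the short, GC-rich message of the second bear on the values that follow. The 2 annotated Slc8a1 transcripts below are each 2913 bases long and differ in a single exon of 21 bases, given in capitals. The printed block is 230 coding bases of 5 exons joined between chr17:81437745-81445593 on the minus strand (GRCm38, annotation M21). The unshared exon lies at chr17:81442203-81442223 in Slc8a1-201 and at chr17:81441861-81441881 in Slc8a1-203, and 10 of the 21 bases are identical at the same place.
Slc8a1-201: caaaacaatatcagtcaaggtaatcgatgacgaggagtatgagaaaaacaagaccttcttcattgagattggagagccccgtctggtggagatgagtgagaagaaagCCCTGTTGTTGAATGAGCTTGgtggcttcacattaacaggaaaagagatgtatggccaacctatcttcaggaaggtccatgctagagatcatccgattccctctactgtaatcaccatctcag
Slc8a1-203: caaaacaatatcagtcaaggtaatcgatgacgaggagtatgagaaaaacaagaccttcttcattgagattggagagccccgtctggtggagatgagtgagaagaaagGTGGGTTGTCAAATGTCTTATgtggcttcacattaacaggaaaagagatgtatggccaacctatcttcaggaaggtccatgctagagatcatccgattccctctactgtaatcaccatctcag

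The coding sequence of Fxyd1 is 279 bases long with a GC content of 56.6%, and it is the same in M21 for the 3 transcripts of the deposited tables. It lies in exons between chr7:31051965-31054366 on the minus strand (GRCm38, annotation M21). The 12 bases in capitals, coding positions 85 to 96, encode the FXYD motif after which the family is named.
Fxyd1: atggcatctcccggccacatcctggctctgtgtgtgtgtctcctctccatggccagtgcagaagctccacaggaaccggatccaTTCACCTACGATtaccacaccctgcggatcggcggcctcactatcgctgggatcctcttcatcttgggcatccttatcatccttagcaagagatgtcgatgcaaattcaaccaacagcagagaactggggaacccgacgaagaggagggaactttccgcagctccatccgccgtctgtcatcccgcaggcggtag

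The coding sequences of the beta subunit genes were compared with each other. Aligned in pairs, Atp1b1 and Atp1b2 were identical at 63.5% of 840 bases, Atp1b1 and Atp1b3 at 60.9% of 814 bases, and Atp1b2 and Atp1b3 at 61.5% of 819 bases. Shared runs were sought in whole transcripts, not only in their coding parts. The longest run of Atp1b1 and Atp1b3 lay in the coding sequence of only 1 of them. The longest run shared by Atp1b1 and Atp1b2 was 19 bases, TGGCAAGAGAGATGAAGAT, and the other pairs shared at most 13 and 12 bases.

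Replicate 1 held 22775991 counts and replicate 2 held 19685821. Mitochondrial genes and their near-identical nuclear copies took most of replicate 1, which left 5028154 counts (22.1%) for other nuclear genes there and 12654724 (64.3%) in replicate 2. Levels are therefore given as TPM, an abundance per transcript length scaled to a fixed sum in each library, and as nuclear TPM, the same values rescaled without those genes. Heart identity was checked with marker genes. All 6 cardiomyocyte markers were at 1 TPM or more in both libraries (summed TPM 983 and 25161), 0 of 4 skeletal muscle markers were, and 3 lung markers had no counts. Across 13155 tested genes the ratio between the libraries moved with GC content, from a median log2 ratio (replicate 2 over replicate 1) of -2.22 for genes under 40% GC to 3.83 for genes of 55% or more.

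The beta subunit genes formed a clear order. Atp1b1, the beta 1 subunit gene at chr1:164437109-164458355 on the minus strand (ENSMUSG00000026576.8), had 3577 counts in replicate 1 and 4025 in replicate 2, with TPM values of 46.09 and 89.57 (67.8 ± 30.7, SD, n = 2). Atp1b3, the beta 3 subunit gene at chr9:96332655-96364442 on the minus strand (ENSMUSG00000032412.8), had 773 and 861 counts, and TPM values of 13.19 and 24.66 (18.9 ± 8.11, SD, n = 2). Atp1b2, the beta 2 subunit gene at chr11:69599736-69605942 on the minus strand (ENSMUSG00000041329.9), had 62 and 364 counts, and TPM values of 0.72 and 7.18 (3.95 ± 4.57, SD, n = 2). Atp1b1 was the highest and Atp1b2 the lowest of the 3 in each library. In nuclear TPM, Atp1b1 was at 638.5 and 229.1, Atp1b3 at 182.7 and 63.1, and Atp1b2 at 9.97 and 18.4. Atp1b1 and Atp1b3 were thus higher in replicate 2 by TPM and lower there by nuclear TPM. Atp1b2 was higher in replicate 2 by both. Both libraries come from the same heart, so these are differences between technical libraries. Within either library, a bulk level does not tell the number of expressing cells from the RNA per cell.

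The proportion of beta 1 to beta 3 message was nearly the same in both libraries. The TPM of Atp1b1 over that of Atp1b3 was 3.49 in replicate 1 (95% exact binomial interval 3.23 to 3.78) and 3.63 in replicate 2 (3.37 to 3.91), a mean log2 ratio of 1.83 ± 0.04 (SD, n = 2). The intervals overlap. These and all later intervals reflect counting error alone, because several reads can come from 1 molecule.

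Atp1b2 kept its place as the lowest beta gene but its distance from the others differed between libraries. Atp1b1 was 64.0-fold above Atp1b2 in replicate 1 (49.8 to 83.7) and 12.5-fold in replicate 2 (11.2 to 13.9), a mean log2 ratio of 4.82 ± 1.67 (SD, n = 2). Atp1b3 was 18.3-fold above Atp1b2 in replicate 1 (14.1 to 24.1) and 3.43-fold in replicate 2 (3.03 to 3.89), a mean log2 ratio of 2.99 ± 1.71 (SD, n = 2). The intervals of the libraries do not overlap for either pair. Atp1b2 also has the highest GC content of the 3, 52.2% against 49.5% for Atp1b1 and 47.7% for Atp1b3, and the part of GC content in these differences was not tested.

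As shares of the summed beta TPM (60 in replicate 1 and 121.41 in replicate 2), Atp1b1 gave 76.8% and 73.8% (75.3% ± 2.15, SD, n = 2). Atp1b3 gave 22.0% and 20.3% (21.1% ± 1.18, SD, n = 2). Atp1b2 gave 1.2% and 5.91% (3.56% ± 3.33, SD, n = 2). Of the summed beta counts, without correction for length, Atp1b2 held 1.41% in replicate 1 (95% Wilson interval 1.10 to 1.80) and 6.93% in replicate 2 (6.28 to 7.65).

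**Figure D1:**
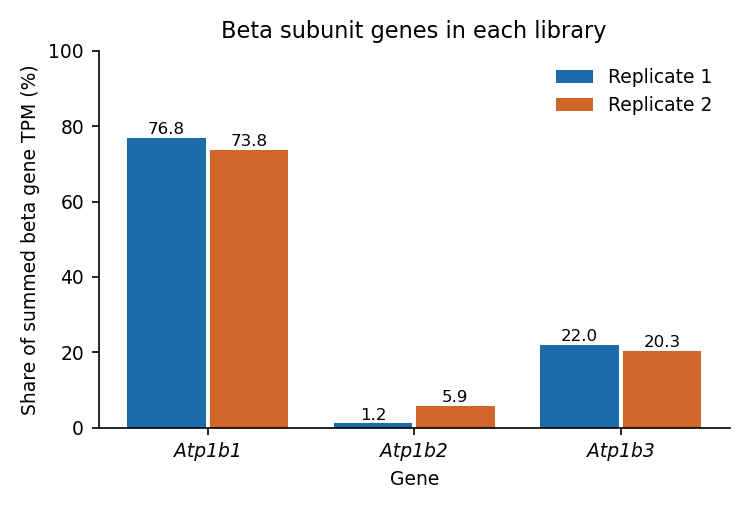
Share of the summed beta subunit TPM, in percent, for Atp1b1, Atp1b2 and Atp1b3 in each library. Atp1b1 makes up 76.8% in replicate 1 and 73.8% in replicate 2, and Atp1b2 is the smallest share in both.

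Of the 5 genes, Fxyd1 differed most between the libraries. The gene, at chr7:31051678-31057199 on the minus strand (ENSMUSG00000036570.10), had 12 counts in replicate 1 and 2487 in replicate 2. Its TPM was 0.89 and 355.18 (178 ± 251, SD, n = 2), a 399-fold difference, and its nuclear TPM 12.3 and 908.5, a 73.7-fold difference. Among nuclear genes it ranked 6533 by TPM in replicate 1 and 167 in replicate 2, so it was the fourth of the 5 genes in one library and the first in the other.

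Set against the beta subunit, the order of regulator and pump message turned over between libraries. Atp1b1 was 51.8-fold above Fxyd1 in replicate 1 (29.6 to 100.3), and Fxyd1 was 3.97-fold above Atp1b1 in replicate 2 (3.77 to 4.17). The mean log2 ratio of Fxyd1 over Atp1b1, -1.85 ± 5.43 (SD, n = 2), therefore describes neither library. Pln, which encodes phospholamban, the inhibitor of the sarcoplasmic reticulum calcium pump, had TPM values of 2118 and 2361. It was 2380-fold above Fxyd1 in replicate 1 (1363 to 4606) and 6.65-fold above it in replicate 2 (6.39 to 6.92).

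Within its family Fxyd1 was the highest gene by TPM in both libraries. Fxyd5, which encodes dysadherin, had TPM values of 0.28 and 15.74, and Fxyd1 was 3.18-fold above it in replicate 1 (0.963 to 13.5) and 22.6-fold in replicate 2 (19.6 to 26.1). The interval for replicate 1 includes 1 because the genes had 12 and 4 counts there. Fxyd6 was at 0.08 and 11.74 TPM and Fxyd3 at 0 and 1.64 TPM. Of 7 family genes, 0 were at 1 TPM or more in both libraries and 1 had no counts in either. At 1 nuclear TPM or more in both, 3 passed.

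Slc8a1, at chr17:81373105-81738377 on the minus strand (ENSMUSG00000054640.10), had 709 and 2394 counts. Its TPM was 8.02 in replicate 1 and 45.43 in replicate 2 (26.7 ± 26.5, SD, n = 2), a 5.66-fold difference. Its nuclear TPM was 111.1 and 116.2 (114 ± 3.60, SD, n = 2), so for this gene the libraries lay close together on that scale. The same rescaling set the libraries further apart for Atp1b1 and Atp1b3. Atp1b1 was 1.94-fold higher in replicate 2 by TPM but 2.79-fold higher in replicate 1 by nuclear TPM. For Atp1b3 these values were 1.87-fold and 2.90-fold.

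Slc8a1 was the highest gene of its family. Slc8a2 and Slc8a3, which encode NCX2 and NCX3, had 0 counts in replicate 1, and 17 and 2 counts in replicate 2. Slc8a1 was at least 351-fold higher than Slc8a2 and at least 260-fold higher than Slc8a3 in replicate 1, taking a floor of 3 counts per library for a gene with none. In replicate 2 it was 206.5-fold above Slc8a2 (128.7 to 355) and 1841-fold above Slc8a3 (509 to 15211). The coding sequences are related, with 75.6% identity to Slc8a2 over 614 bases and 77.0% to Slc8a3 over 806 bases.

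Calcium leaves the myocyte cytosol through the exchanger, through plasma membrane calcium pumps and, into the store, through SERCA2, encoded by Atp2a2. Slc8a1 was above Atp2b1, the plasma membrane pump gene PMCA1, by 1.55-fold in replicate 1 (1.41 to 1.70) and 5.43-fold in replicate 2 (5.06 to 5.84). Atp2a2 was 108-fold above Slc8a1 in replicate 1 (100.3 to 116.5) and 73.1-fold in replicate 2 (70.2 to 76.1), a mean log2 ratio of Slc8a1 over Atp2a2 of -6.47 ± 0.40 (SD, n = 2). Atp1b1 was 5.75-fold above Slc8a1 in replicate 1 (5.30 to 6.24) and 1.97-fold in replicate 2 (1.87 to 2.07). The order of these genes was the same in both libraries, and the distances differed. No pair of intervals overlaps, but they cover counting error alone and not other variation between libraries.

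**Figure D2:**
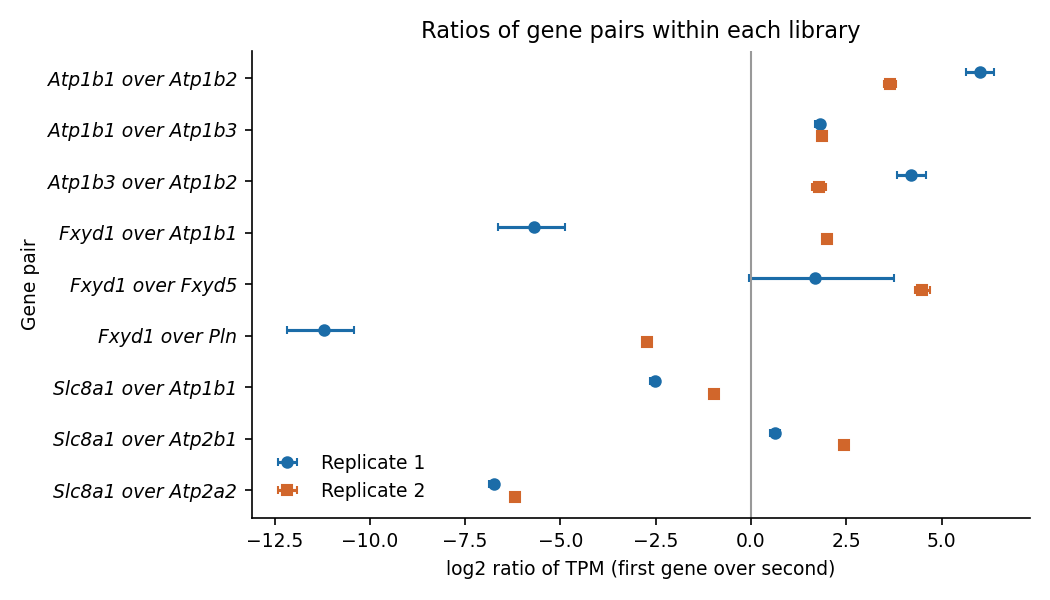
Log2 TPM ratios of gene pairs in each library, with 95% exact binomial intervals. Atp1b1 over Atp1b3 sits at 1.81 in replicate 1 and 1.86 in replicate 2, whereas Fxyd1 over Atp1b1 changes sign, from -5.69 to 1.99.

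Ordered by TPM, replicate 1 gave Atp1b1, Atp1b3, Slc8a1, Fxyd1 and Atp1b2, and replicate 2 gave Fxyd1, Atp1b1, Slc8a1, Atp1b3 and Atp1b2. In replicate 1 the last neighbours were not separated, with Fxyd1 over Atp1b2 at 1.24 (0.606 to 2.32). Atp1b3 was 1.64-fold above Slc8a1 in replicate 1 (1.48 to 1.82) and Slc8a1 was 1.84-fold above Atp1b3 in replicate 2 (1.70 to 1.99). Atp1b1 stood above Atp1b3, Slc8a1 and Atp1b2 in both libraries. The summed TPM of all 5 genes was 68.9 and 522.0, of which Fxyd1 gave 0.89 and 355.18. Their summed nuclear TPM was 955 and 1335.

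**Figure D3:**
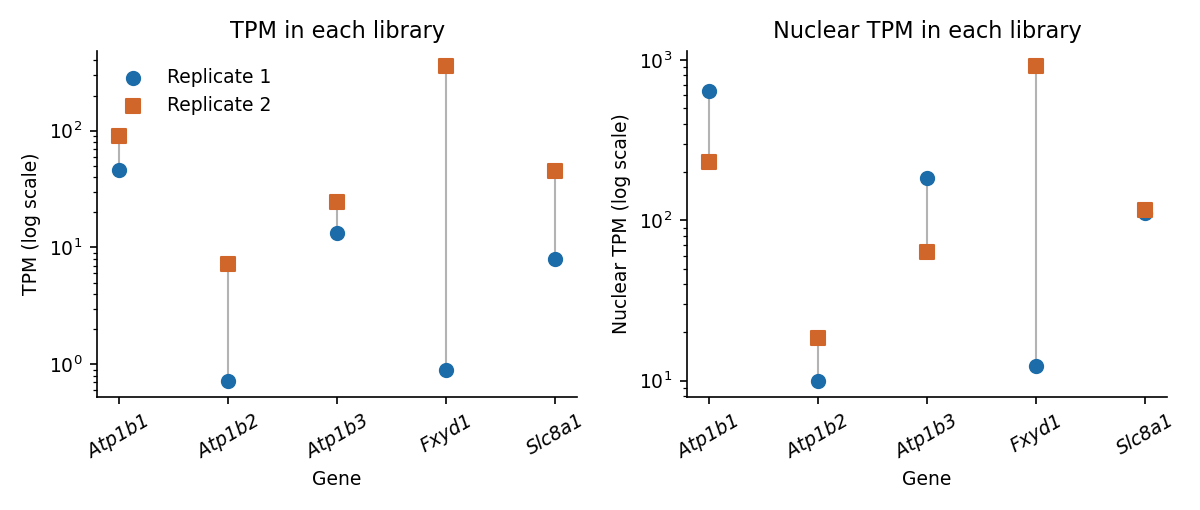
TPM and nuclear TPM of each gene in each library, on log axes. Fxyd1 moves from 0.89 to 355.18 TPM, while Slc8a1 is at 111.1 and 116.2 nuclear TPM.

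The direction of a difference between libraries depended on the scale. With TMM-scaled counts over the 13182 genes that had at least 20 counts in total, 39.3% were at least 2-fold higher in replicate 2 and 27.2% at least 2-fold lower, with no p-value because there is 1 library on each side. By total counts, 8698 genes were higher and 149 lower, so the scaling sets the split. Of the 5 genes, 2 were higher, 2 lower and 1 under 2-fold, which beside those percentages is no result about these genes. The median log2 ratio of all tested genes was 0.23. Fxyd1 was higher in replicate 2 by a log2 ratio of 6.19 (5.42 to 7.18) and Atp1b2 by 1.08 (0.69 to 1.5). Atp1b1 was lower by TMM, with a log2 ratio of -1.30 (-1.37 to -1.23), but higher by total counts, with 0.38. Atp1b3 was lower by TMM, with -1.31 (-1.46 to -1.17), but higher by total counts, with 0.37. Slc8a1 had a log2 ratio of 0.29 (0.16 to 0.41), under the 2-fold threshold.

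These ratios were set beside those of genes of like GC content. The bin medians were 3.89 for the bin of Fxyd1 (57.8% GC), 1.14 for that of Atp1b2, 0.07 for that of Atp1b1, -0.14 for that of Slc8a1 and -0.45 for that of Atp1b3. After subtraction the log2 ratios were 2.31 for Fxyd1, -0.06 for Atp1b2, -1.37 for Atp1b1, 0.43 for Slc8a1 and -0.86 for Atp1b3. Fxyd1 had a higher ratio than 89.0% of its bin of 263 genes, Slc8a1 than 73.8%, Atp1b2 than 47.5%, Atp1b3 than 8.75% and Atp1b1 than 3.42%. Fxyd1 and Atp1b1 were thus more than 2-fold from their bin medians, and Atp1b3 lay towards the low end of its bin although within 2-fold of the median. Of the 13155 tested genes with a GC content, 2004 were at least 2-fold above their bin median and 1737 at least 2-fold below. Beside those numbers, passing 2-fold is no result about these genes. With 12 counts in replicate 1, Fxyd1 reached the minimum of 20 counts only through replicate 2. The 12 tested genes of Fxyd1's bin with an effective length under 500 bases had a median of 5.33, and the 251 longer ones 3.81. Summed nuclear TPM of marker lists differed between the libraries too. It was higher in replicate 2 for cardiomyocyte (13620 and 64357), endothelial (231 and 609), macrophage (7.62 and 168) and red cell markers (996 and 12824), and lower for fibroblast (2436 and 941) and mural markers (1439 and 672). The cardiomyocyte markers did not move as one, since Ryr2, the calcium release channel gene, was at 356.7 and 279.9 nuclear TPM. The lower mural sum came from Rgs5 alone (1393 and 322 nuclear TPM). Acta2 (38.1 and 312), Myh11 (8.03 and 31.7) and Cspg4 (0.14 and 6.70) were higher in replicate 2. The fibroblast marker Col1a1 was also higher there (13.7 and 35.6), and the endothelial marker Kdr was lower (104.9 and 82.6). Some markers lay near their GC bin medians by TMM log2 ratio: Rgs5 at -1.90 beside -1.78, Dcn at -1.11 beside -1.49, and Tie1 at 3.94 beside 4.28. Others lay further off, such as Acta2 at 3.25 beside 0.07 and Hba-a1 at 9.58 beside 3.73. Both libraries are of the same heart, and the part of GC content in the marker sums was not tested. The part of the marker values in the Fxyd1 difference was not tested either.

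**Figure D4:**
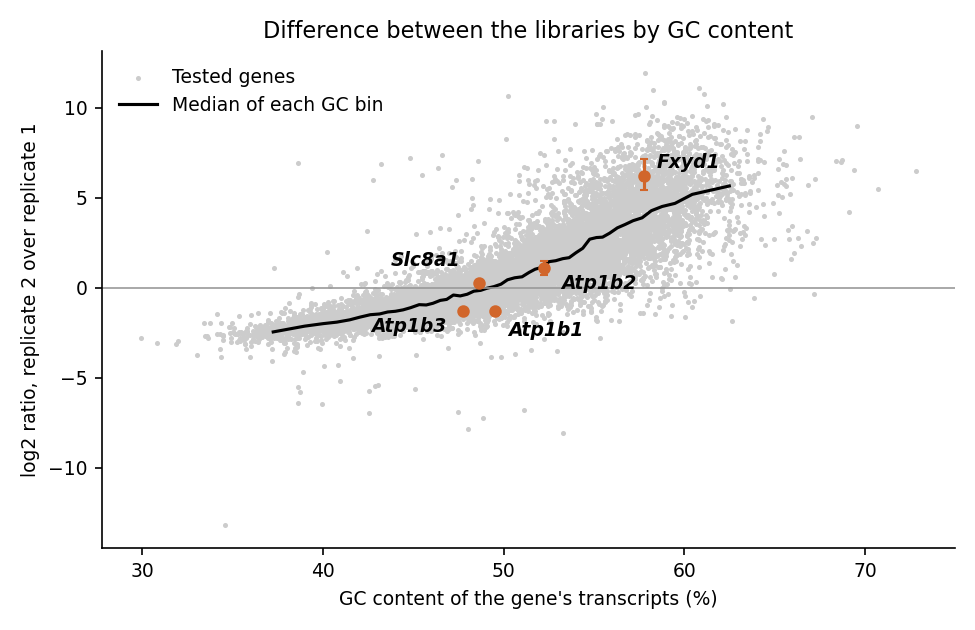
Log2 ratio of replicate 2 over replicate 1 against GC content in percent for tested genes (grey), with the median in GC bins as a line and the 5 genes in orange with exact 95% intervals. Fxyd1 lies at 6.19 above a bin median of 3.89, and Atp1b1 at -1.30 below a bin median of 0.07.

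The leading transcript was the same in each library for every gene but Fxyd1. Atp1b1-201 held 100% and 96.51% of Atp1b1, with 3.49% for Atp1b1-203 in replicate 2. Atp1b3-201 held 100% of Atp1b3 in both. Atp1b2-201 held 100% and 87.11% of Atp1b2, with 8.02% for Atp1b2-202 in replicate 2, which is annotated as a processed transcript. The posterior mean share of Atp1b2-201 was lower, 72.35% and 79.32%.

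All Slc8a1 counts went to Slc8a1-201 in both libraries, the first of the 2 models printed above, and Slc8a1-202 and Slc8a1-203 had none. The posterior mean share of Slc8a1-201 was 96.69% and 98.92%. The 2913-base models are coding sequence throughout. The later annotation M21 gives Slc8a1 a last exon of 15963 bases that these models lack. The levels, ratios and GC content of Slc8a1 given above rest on the shorter models, and the part of the missing exon in them was not tested.

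Fxyd1 changed its leading transcript with the library. Fxyd1-203 held 0% and 84.32%, Fxyd1-202 held 100% and 8.02%, and Fxyd1-201 held 0% and 7.65%. The posterior mean shares in replicate 1 were 32.58%, 45.68% and 21.74%, so 12 counts did not fix an order there.

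**Figure D5:**
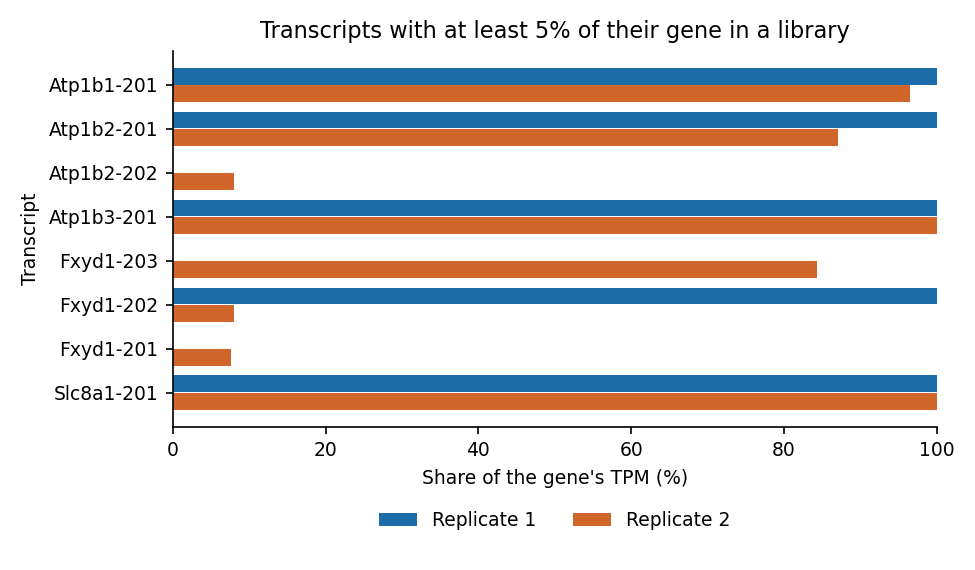
Deposited share of each gene's abundance, in percent, in each library, for transcripts with at least 5% of their gene in a library. Fxyd1 is the 1 gene whose leading transcript differs, with Fxyd1-202 at 100% in replicate 1 and Fxyd1-203 at 84.32% in replicate 2.

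Overlapping and similar genes had few counts assigned to them. Nme7 on the opposite strand overlaps Atp1b1 by 617 bases and had 28 and 50 counts, and Gm11096 overlaps Slc8a1 by 161 bases and had 0. Gm1848 (96.4% identity to Atp1b3 over 805 bases) and Gm6680 (86.5% over 635 bases) had 0 counts. Reads of such genes that were credited to Atp1b1, Atp1b3 or Slc8a1 would not show in these counts.

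Other genes of sodium and calcium handling gave the setting. Of 52 listed genes in 6 groups, 14 were at 1 TPM or more in both libraries. Of all 43346 Ensembl genes, 6222 (14.4%) were. A level of 1 TPM corresponds to 13.9 nuclear TPM in replicate 1 and 2.56 in replicate 2. At 1 nuclear TPM or more in both libraries, 27 of the 52 passed. Counts of genes higher or lower in replicate 2 below use TMM scaling and 2-fold, and are to be read beside the 39.3% and 27.2% of all tested genes. Of 9 sodium-calcium exchangers, Slc8a1 was the 1 gene at 1 TPM or more in both, with 1 of 5 tested higher in replicate 2 and 1 lower. The higher one had under 10 counts in replicate 1, so it was tested only because of replicate 2 and its direction follows from the minimum. The potassium-dependent exchangers Slc24a3 (TPM 0.11 and 0.96), Slc24a2 (0.22 and 0.50) and Slc24a4 (0.03 and 0.37) were low. Of 9 sodium-proton exchangers 2 were at 1 TPM or more in both, with 3 of 7 tested higher, 1 of them with under 10 counts in replicate 1, and 1 lower. Slc9a8, a Golgi exchanger, was at 1.02 and 8.85 TPM.

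Among 10 other sodium-coupled carriers 5 reached that level in both libraries, with 1 of 6 tested higher and 3 lower. They included the phosphate carrier Slc20a1 (6.10 and 17.78) and the bicarbonate carriers Slc4a4 (2.09 and 4.31) and Slc4a7 (1.95 and 2.61). Of 4 plasma membrane calcium pumps, Atp2b1 (5.17 and 8.36) was the 1 gene at the level in both, and Atp2b4 was at 0.85 and 4.40. Of 13 pump-associated and regulatory genes 5 reached it, with 7 of 11 tested higher and 1 lower. Of those 7, 5 had under 10 counts in replicate 1 and were tested only because of replicate 2, so their direction is no result. Prkaca, the catalytic subunit of protein kinase A, was at 3.19 and 84.15 TPM, Ank2, the ankyrin that anchors pump and exchanger, at 13.49 and 42.85, and Cav3, the muscle caveolin, at 0.13 and 40.45. All 3 tested genes of the FXYD family, Fxyd1, Fxyd5 and Fxyd6, were at least 2-fold higher in replicate 2, and with 12, 4 and 4 counts in replicate 1 they reached the minimum of 20 counts only through replicate 2.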

How the data were processed

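Poly(A) RNA of 1 mouse heart was measured in 2 libraries. The deposited tables give expected counts, TPM, FPKM and posterior mean TPM per gene and transcript, and the percent of each gene carried by each transcript, on mm10 with annotation M4, per the deposited file descriptions. The expected counts, deposited per gene, need not be whole and were rounded for ratios. TPM and FPKM were computed by the authors. The percent values per transcript were deposited by the authors. The aligner, the quantifier and the strand setting were not given in the sources used here.

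Identifiers were matched without version to annotation M21 (GRCm38, the same assembly), where 42462 genes have a symbol; 15 of the 18 transcripts of the 5 genes have the same length there. Coordinates are 1-based. Near-identical copies of mitochondrial genes were found with blastn 2.17.0 (at least 95% identity over at least 90% of length). Pair ratios have 95% exact binomial intervals, a gene with no counts sets a bound at 3 counts, and one with 1 to 3 counts gives a ratio of counts per effective length. Libraries were compared with TMM scaling in edgeR 4.0.16 (R 4.3.3), 0.5 counts added and a minimum of 20 counts, calling at 2-fold. The GC trend was taken as the median in 50 bins. The calling step was tested on simulated data. Those data had few changed genes and no GC trend, so the test does not cover libraries that differ as these do. DESeq2 1.42.0 gave alternative size factors. Statistics used Python 3.11.15, numpy 2.4.6, pandas 2.3.3 and scipy 1.17.1.

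Named genes are all 5 genes, both genes of each pair, genes of highest TPM per list, and transcripts with at least 5% of a gene. Genes, pairs and lists were chosen with earlier results of these data known. Planned alpha subunit ratios and the values of some other genes are not reported here.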

Additional observations from a re-analysis of the deposited data

How the results depend on the processing

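Of 63 alternatives to the 9 pair ratios with a mean, 61 lay within 1 SD, as leaving out 1 of 2 libraries does by construction, and 2 moved. Of the 61, 2 changed sign, both of Fxyd1 over Atp1b1. Log2 Atp1b1 over Atp1b3 became 1.78 with a pseudocount of 1 TPM and 2.09 with GC-adjusted replicate 1. Log2 Fxyd1 over Atp1b1 became 0.056 with GC adjustment, and ranged from -5.69 to 1.99 when 1 library was left out. By counts without length correction the beta shares were 78.9% for Atp1b1 and 17.0% for Atp1b3, and with GC adjustment 18.3% for Atp1b3. Genes at least 2-fold higher in replicate 2 numbered 8410 with at least 1 count, 8698 by total counts and 2004 with the GC trend removed, against 5178. Those lower numbered 149 by total counts, 1737 with the GC trend removed and 908 at 4-fold, against 3587. By total counts the log2 ratios of Atp1b1 and Atp1b3 were 0.38 and 0.37, and Slc8a1 passed the threshold at 1.97. With the GC trend removed Atp1b2 was at -0.062. Atp1b2 fell under the threshold with DESeq2 size factors (0.97) and nuclear TPM (0.88), and Atp1b3 with the GC trend removed (-0.86). The cause was not tested. Depth limits Fxyd1 in replicate 1 (12 counts) and Atp1b2 there (62 counts). No paired analysis was possible because there is 1 group.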
